A study of Mus musculus with 26 samples.

Results

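The transcripts described here are those of 10 mouse genes chosen by name out of 52962 in the count table: the Notch receptors *Notch1*, *Notch2* and *Notch3*, the Notch ligand *Jag1*, the HES and HEY repressors *Hes1*, *Hey1* and *Heyl*, and the ID repressors *Id1*, *Id2* and *Id3*. They were measured by RNA sequencing of brown preadipocytes, the precursors of brown fat cells, in 26 libraries that fall into 9 groups. All groups share one background: immortalized cells of newborn mice with floxed insulin receptor and IGF1 receptor genes, in which Cre recombinase had removed both receptors. Of these double knockout cells, DKO carried an empty vector, IR carried the normal human insulin receptor, K1030R a receptor with an inactive kinase, ∆CT a receptor without its C-terminal tail, and JMO a receptor whose intracellular part was cut back to the juxtamembrane stretch. Every line was starved of serum for 6 h and collected either without ligand (basal) or after 15 min in 100 nM insulin. Each group had 3 replicate libraries except insulin-treated ∆CT cells (2), and DKO cells were collected in the basal state only. Replicates are called dishes here, though the labels give only a replicate number. Each receptor was studied in 1 stable line, so the spread between dishes is the error given here and a difference between lines cannot be told apart from a difference between the stable populations.

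Notch receptors are cut when a neighboring cell presents a ligand such as Jag1, and the freed intracellular piece joins the DNA-binding protein RBPJ in the nucleus to switch on repressor genes of the HES and HEY families. ID proteins are repressors of a second kind: they lack a DNA-binding region and hold E proteins and other helix-loop-helix factors away from DNA, and their genes are classic targets of bone morphogenetic protein (BMP) signaling. *Hes1* is also known as a rapidly induced gene, and Notch and ID activity are both known to restrain or time the differentiation of preadipocytes.

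Of the 10 genes, 8 exceeded a CPM (the count relative to the TMM-scaled library total) of 0.5 in 4 or more libraries, and so entered the test with 15402 genes in all. *Hey1* passed that level in 0 libraries and *Heyl* in 1, and both are described by their counts. Per kilobase of exon, the mean over the groups was 30.1 CPM for *Notch2*, 11.2 for *Id3*, 6.04 for *Hes1*, 5.83 for *Id1*, 4.14 for *Notch1*, 3.14 for *Id2*, 2.39 for *Jag1* and 0.832 for *Notch3*, against 0.0327 for *Heyl* and 0.0298 for *Hey1*. *Notch2* was thus the most abundant receptor transcript in these cells. On this scale *Notch3* stood well below the other receptors.

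Promoter windows, from 250 bases before to 50 bases after the start of the gene, were found in RefSeq (GRCm38.p6) for 6 of the 10 genes: *Notch1*, *Notch2*, *Notch3*, *Jag1*, *Id2* and *Id3*. The parts of these windows outside annotated exons are shown for the 3 genes whose basal levels differed most between lines. The *Jag1* stretch lies just upstream of the gene on the minus strand (chr2:137116645-137116770), the *Notch3* stretch likewise (chr17:32166853-32167140), and the *Id2* stretch lies in an intron of the longer transcript and upstream of the shorter one (chr12:25096254-25096342, minus strand). All are written 5′ to 3′, and capitals mark motif matches on either strand.
Jag1: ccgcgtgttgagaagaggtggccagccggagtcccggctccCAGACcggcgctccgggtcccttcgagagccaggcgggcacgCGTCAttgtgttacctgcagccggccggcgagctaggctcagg
Notch3: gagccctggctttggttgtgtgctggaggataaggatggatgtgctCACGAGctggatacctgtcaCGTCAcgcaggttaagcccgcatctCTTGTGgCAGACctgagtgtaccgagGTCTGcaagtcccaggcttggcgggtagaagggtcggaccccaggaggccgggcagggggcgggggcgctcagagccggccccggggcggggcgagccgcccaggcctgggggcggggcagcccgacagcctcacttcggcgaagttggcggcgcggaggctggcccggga
Id2: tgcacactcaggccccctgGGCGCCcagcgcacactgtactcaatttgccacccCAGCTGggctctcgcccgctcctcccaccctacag
The *Jag1* stretch holds a SMAD-binding element (CAGAC, in 49.6% of all 32851 windows of 300 bases) and a short-form cAMP response element (TGACG, reverse complement CGTCA, in 20.8%). The *Notch3* stretch holds 2 N-boxes (CACNAG, in 42.5%), the sequence to which HES proteins bind, 1 short-form cAMP response element and 2 SMAD-binding elements. *Id2* has a GC-rich SMAD site (GGCGCC, in 11.9%) and an E-box (CANNTG, in 72.3%) there. The RBPJ core TGGGAA (in 25.6%), the EGR site GCGTGGGCG (in 0.612%), the full cAMP response element TGACGTCA (in 1.79%) and the CArG box of serum response factor (in 1.63%) were in 0 of the 6 windows. These are letter matches in short windows and not measured binding sites.

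*Insr*, counted on the mouse sequence, lay between 22.3 and 24.8 CPM in DKO libraries and between 65.5 and 99.7 CPM in all libraries with a receptor. *Igf1r* was between 24.7 and 35.7 CPM throughout. With no library from cells before Cre, these counts over whole genes do not check the loss of the mouse receptors. Library totals ran from 17228982 to 24694828 counts, and dishes had a biological coefficient of variation of 4.44%. Of 12 preadipocyte and mesenchymal markers 10 were tested, and their summed CPM was from 5940 to 6281 in DKO, from 5937 to 6004 in JMO, from 11592 to 12767 in IR, from 10099.6 to 10645 in ∆CT and from 9519 to 9996 in K1030R cells in the basal state. Most of that sum was *Col1a1*, *Col3a1* and *Vim*, and single markers moved otherwise. *Ly6a* was below DKO by -3.33 in IR and -2.06 in JMO cells on the log2 scale, *Thy1* was above it by 1.72 and 1.99, and *Pparg* and *Cebpb* were lower in IR cells (-0.73 and -0.68). Of 7 brown adipocyte markers 2 were tested, with *Ucp1* at 0 CPM in all groups but JMO with insulin, and of 6 endothelial markers 1 was tested. Immune markers, 3 of 6 tested, summed to between 14.3 and 16.7 CPM in DKO, 12.8 and 15.0 in JMO, and 7.82 and 10.2 in the other lines. The basal difference between lines thus runs through these markers too, and its part in the results below was not tested. In bulk RNA, fewer cells of a type and less RNA per cell cannot be told apart.

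After 15 min of insulin, 3 of the 8 tested genes rose in cells with the normal receptor: *Hes1*, *Id1* and *Id3*. All 3 also rose in ∆CT cells, and the other 5 passed the test in neither line. No tested member passed it in K1030R or JMO cells.

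*Hes1* (ENSMUSG00000022528, GRCm38 chromosome 16, 30064384 to 30067796) encodes the repressor best known as a direct Notch target. In IR cells it had 8.80, 8.96 and 9.53 CPM in the basal dishes and 22.3, 23.6 and 21.5 CPM with insulin. In ∆CT cells it went from 9.63, 10.1 and 7.66 CPM to 22.9 and 23.0 CPM. Basal and insulin dishes did not overlap in either line, and insulin brought both lines to nearly equal levels. The rise was 2.47-fold in IR cells (log2 1.30, SE 0.0831, adjusted p = 4.4e-14 from the quasi-likelihood test of edgeR after Benjamini-Hochberg correction) and 2.51-fold in ∆CT cells (log2 1.33, SE 0.0906, adjusted p = 3e-13). Against a minimum fold of 1.5 it passed too, with adjusted p of 2e-08 and 6.8e-08. In K1030R cells the dishes had 11, 9.01 and 9.52 CPM without and 12.4, 11.5 and 10.6 CPM with insulin, which overlap (log2 0.23, 95% interval 0.04 to 0.41, adjusted p = 0.62). JMO cells had 6.71, 6.94 and 6.74 CPM without and 8.76, 9.39 and 8.77 CPM with insulin. These dishes did not overlap, yet the difference missed the threshold after adjustment (log2 0.40, 95% interval 0.21 to 0.60, adjusted p = 0.053). It passed with no filter on low counts (adjusted p = 0.032), with the replicate block (0.036), and when the first or second basal K1030R dish or basal ∆CT dish 2 or 3 was left out of the fit that all groups share (0.0176 to 0.0461).

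**Figure D1:**
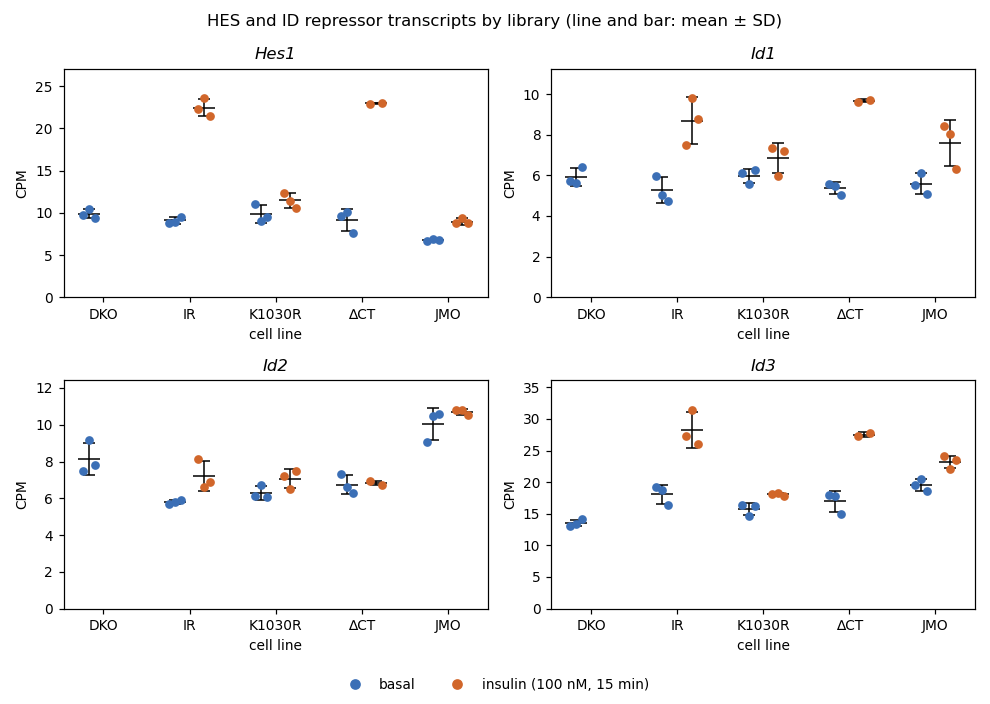
Level of *Hes1*, *Id1*, *Id2* and *Id3* (CPM after TMM scaling, linear axes from 0) in every library of the 5 lines, blue for basal and orange for 100 nM insulin for 15 min, with black lines for the mean ± SD of each group. Insulin dishes stand apart from basal dishes for *Hes1*, *Id1* and *Id3* in IR, ∆CT and JMO cells, for *Id3* in K1030R cells and for *Id2* in IR cells. Of these only *Hes1*, *Id1* and *Id3* in IR and ∆CT cells passed the test. *Id2* is highest in JMO cells in both states.

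*Id1* (ENSMUSG00000042745, chromosome 2, 152736251 to 152737410) rose to a smaller extent. Its 3 basal IR dishes had 5.98, 5.05 and 4.74 CPM and its insulin dishes 7.49, 9.79 and 8.79 CPM, while ∆CT cells had 5.6, 5.49 and 5.02 CPM and then 9.61 and 9.71 CPM. Every insulin dish of both lines was above every basal dish. The folds were 1.65 (log2 0.72, SE 0.118, adjusted p = 0.00015) and 1.80 (log2 0.85, SE 0.129, adjusted p = 5e-05), with neither past the minimum fold of 1.5. K1030R cells had 6.10, 5.59 and 6.26 CPM and then 7.35, 5.98 and 7.22 CPM, with overlap. JMO cells had 5.53, 6.12 and 5.10 CPM and then 8.44, 8.01 and 6.30 CPM, without overlap (log2 0.45, 95% interval 0.21 to 0.69, adjusted p = 0.12). Without the third insulin dish the JMO difference was 0.56 and passed (adjusted p = 0.038).

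*Id3* (ENSMUSG00000007872, chromosome 4, 136143497 to 136145755), the most abundant ID transcript per kilobase, rose 1.56-fold in IR cells and 1.62-fold in ∆CT cells. IR dishes had 19.3, 18.7 and 16.4 CPM without and 27.3, 31.5 and 26.1 CPM with insulin (log2 0.64, SE 0.0715, adjusted p = 7.2e-08). ∆CT dishes had 18.0, 17.9 and 15.0 CPM and then 27.3 and 27.8 CPM (log2 0.70, SE 0.0800, adjusted p = 1.6e-07). In both lines the states were fully separate. Levels in K1030R were 16.3, 14.6 and 16.2 CPM and then 18.1, 18.3 and 17.8 CPM (log2 0.20, 95% interval 0.04 to 0.36, adjusted p = 0.62), and in JMO they were 19.5, 20.5 and 18.6 CPM and then 24.1, 22.1 and 23.5 CPM (log2 0.25, 95% interval 0.10 to 0.40, adjusted p = 0.20). Here too the insulin dishes lay above the basal ones in both lines, by amounts that did not pass the test.

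*Id2*, whose product shares the helix-loop-helix partners of Id1 and Id3, did not follow them past the threshold. Its IR dishes had 5.68, 5.81 and 5.93 CPM without and 8.13, 6.62 and 6.86 CPM with insulin (log2 0.31, 95% interval 0.10 to 0.52, adjusted p = 0.12). In ∆CT, K1030R and JMO cells the difference was 0.018, 0.16 and 0.098 on the log2 scale. *Jag1* differed by 0.19 in IR cells (95% interval 0.04 to 0.33, adjusted p = 0.19) and by between -0.046 and 0.082 in the other lines. For the receptors, insulin moved *Notch1* by 0.0046 to 0.072, *Notch2* by -0.060 to 0.040 and *Notch3* by -0.17 to -0.035 across the 4 lines, with adjusted p of 0.355 or more.

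These counts stand against small backgrounds. Without a minimum fold, insulin called 1.87% of all tested genes in IR, 1.01% in ∆CT, 0.364% in JMO and 0.156% in K1030R cells, and with it 0.221%, 0.214%, 0.039% and 0%. The 0% for K1030R came from edgeR's minimum-fold test, in which 59 genes had an unadjusted p below 0.05. Members called were 3 of 8 in IR and in ∆CT by edgeR, DESeq2 and limma voom alike. In K1030R and JMO cells each of these tools called 0, and edgeR gave 2 and 3 members with an unadjusted p below 0.05. The median log2 difference over the 8 members was 0.25 in IR, 0.077 in ∆CT, 0.12 in K1030R and 0.054 in JMO cells, where the median of all tested genes was between -0.014 and 0.00032.

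**Figure D2:**
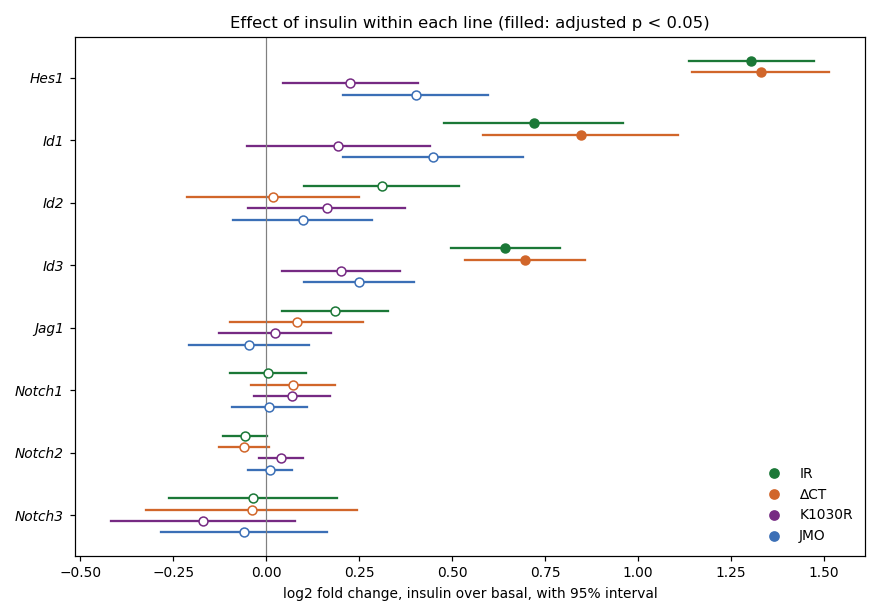
Log2 fold change of insulin over basal for the 8 tested genes (rows) in IR, ∆CT, K1030R and JMO cells (colors), with 95% intervals from edgeR's quasi-likelihood fit. Filled points passed an adjusted p of 0.05: *Hes1*, *Id1* and *Id3* in IR and ∆CT cells.

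The insulin effects themselves were compared between lines as contrasts of the same model. For *Hes1* the effect was smaller by 1.08 on the log2 scale in K1030R than in IR cells (difference -1.08, SE 0.123, adjusted p = 2.2e-07), by a difference of -0.90 (SE 0.128, adjusted p = 2.4e-05) in JMO than in IR, and by -0.93 (SE 0.133, adjusted p = 3.3e-05) in JMO than in ∆CT cells, and it was larger in ∆CT than in K1030R cells by 1.10 (SE 0.128, adjusted p = 3.3e-07). Between ∆CT and IR cells it differed by 0.025 (95% interval -0.23 to 0.28), and between JMO and K1030R cells by 0.18 (95% interval -0.091 to 0.44), neither past the threshold. *Id3* passed only for ∆CT over K1030R cells (0.49, SE 0.112, adjusted p = 0.027). That call was lost with limma voom (adjusted p = 0.063) and on leaving out any of 8 libraries: each insulin dish of K1030R and of ∆CT, basal dishes 1 and 3 of K1030R, and basal dish 3 of ∆CT (log2 between 0.41 and 0.51, adjusted p between 0.0585 and 0.162).

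The *Id3* difference between K1030R and IR cells lay just outside the threshold (-0.44, SE 0.106, adjusted p = 0.053). It passed with no filter on low counts (adjusted p = 0.0060), with at least 10 counts in at least 4 libraries (0.0495), with the replicate block (0.036), and without basal dish 1 or insulin dish 3 of IR, basal dish 2 of K1030R or basal dish 3 of ∆CT (0.0167 to 0.0311). Between JMO and IR cells *Id3* gave -0.39 (adjusted p = 0.12) and between JMO and ∆CT cells -0.45 (adjusted p = 0.081), which passed with no filter (0.0134 and 0.0030), the former also without the third insulin dish of IR (0.049) and the latter without basal dish 3 or insulin dish 2 of IR (0.0485 and 0.0325). For *Id1* the difference was -0.53 (95% interval -0.87 to -0.18, adjusted p = 0.35) between K1030R and IR cells and 0.65 (95% interval 0.29 to 1.01, adjusted p = 0.17) between ∆CT and K1030R cells. So the IR and ∆CT calls for *Id1* were not shown to differ from the missing calls in the other lines. *Id2*, *Jag1* and the 3 Notch receptors gave differences between -0.29 and 0.13 in all these contrasts.

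Among all tested genes the difference of insulin effects was called for 0.37% between K1030R and IR, 0.279% between JMO and IR, 0.26% between JMO and ∆CT, 0.416% between ∆CT and K1030R, 0.026% between JMO and K1030R and 0.00649% between ∆CT and IR cells. Members called were 1, 1, 1, 2, 0 and 0 of 8 in that order. For the last 2 contrasts edgeR gave 0 members with an unadjusted p below 0.05, and DESeq2 and limma voom called 0.

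With insulin present, the lines were also compared directly. *Hes1* was lower in K1030R than in IR cells (log2 -0.97, SE 0.0806, adjusted p = 1.6e-11), lower still in JMO against IR (-1.32, SE 0.0838, adjusted p = 3.4e-15) and JMO against ∆CT (-1.36, SE 0.0911, adjusted p = 2.5e-14), and higher in ∆CT than in K1030R cells (1.001, SE 0.0883, adjusted p = 2.9e-10), all 4 past the minimum fold of 1.5. ∆CT and IR cells differed by 0.033 (95% interval -0.14 to 0.20). *Id3* gave -0.65 in K1030R and -0.29 in JMO against IR cells, -0.24 in JMO against ∆CT cells and 0.61 in ∆CT against K1030R cells. JMO and K1030R cells stood in opposite order for both genes: JMO was below K1030R for *Hes1* (-0.36, SE 0.0899, adjusted p = 0.0018) and above it for *Id3* (0.36, SE 0.0736, adjusted p = 0.00016). *Id1* was called too, less firmly, in K1030R against IR (-0.35), JMO against ∆CT (-0.34) and ∆CT against K1030R cells (0.50). The first 2 calls were lost with DESeq2 (adjusted p = 0.051 and 0.071). The first was also lost without insulin dish 2 of IR or of K1030R. The second was lost without insulin dish 3 of JMO, and the third without insulin dish 2 of K1030R. In this state 5 members were called in K1030R against IR (34% of all genes), 2 in ∆CT against IR (19.7%), 5 in JMO against IR (40.2%), 6 in JMO against K1030R (38.4%), 6 in JMO against ∆CT (33.1%) and 4 in ∆CT against K1030R cells (5.03%), the last falling to 2 without the first ∆CT dish.

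In the basal state, the largest difference among the 8 genes was that of *Jag1*, the membrane ligand. Its level was lowest in DKO cells and higher in all 4 lines with a receptor, also in those whose receptor lacks kinase activity or most of its intracellular part. *Id3* and *Notch1* were likewise higher in all 4, by smaller amounts. *Id2* was lower in IR, K1030R and ∆CT cells and higher in JMO cells, and *Hes1* was lower in JMO cells. The 4 comparisons share the DKO dishes, so their values are given side by side and their likeness is not counted as a result.

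*Jag1* (ENSMUSG00000027276, chromosome 2, 137081456 to 137116644) had 6.79, 6.19 and 7.25 CPM in DKO, 19.4, 17.5 and 17.4 CPM in IR, 11.3, 11.1 and 11.9 CPM in ∆CT, 16.6, 15.8 and 15.4 CPM in K1030R, and 11.4, 11.6 and 13.8 CPM in JMO cells. Every dish of the lines with a receptor was above all DKO dishes. The fold over DKO was 2.67 in IR (log2 1.42, SE 0.0819, adjusted p = 1.9e-16), 2.35 in K1030R (1.23, SE 0.0839, adjusted p = 2.4e-14), 1.68 in ∆CT (0.75, SE 0.0868, adjusted p = 6.2e-09) and 1.81 in JMO cells (0.85, SE 0.0854, adjusted p = 7.5e-10). Against a minimum fold of 1.5 it passed in IR, K1030R and JMO (adjusted p = 3.9e-11, 2.7e-08 and 0.021) and not in ∆CT cells (0.13). Ordered by level, DKO was followed by ∆CT and JMO, which did not differ beyond their spread (0.10, 95% interval -0.059 to 0.26), and then by K1030R and IR, whose difference missed the threshold (K1030R minus IR -0.19, 95% interval -0.33 to -0.036, adjusted p = 0.054). The step between the lower and the upper pair passed: on the log2 scale ∆CT differed by -0.67 from IR and by -0.48 from K1030R, and JMO by -0.56 from IR and by -0.38 from K1030R (adjusted p of 0.000147 or less). With insulin the order was unchanged but for ∆CT and JMO, at 20.6 ± 0.890 CPM in IR (mean ± SD, n = 3), 12.1 ± 0.491 in ∆CT (n = 2), 16.2 ± 0.652 in K1030R (n = 3) and 11.9 ± 0.633 in JMO cells (n = 3), and K1030R was then below IR past the threshold (-0.35, SE 0.0715, adjusted p = 0.00023).

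**Figure D3:**
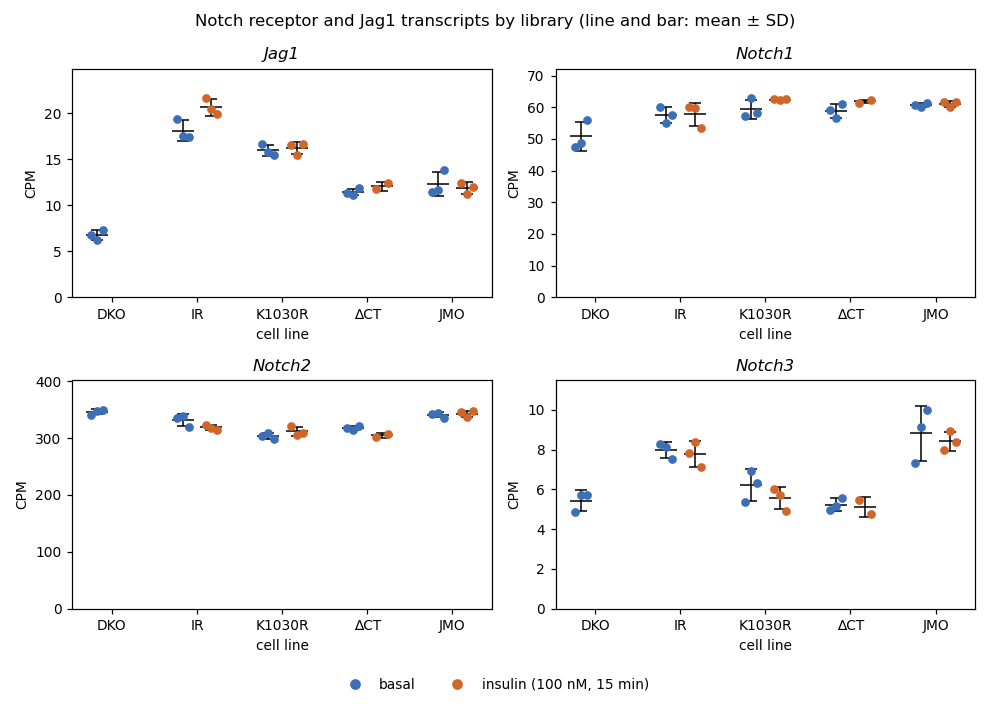
Level of *Jag1*, *Notch1*, *Notch2* and *Notch3* (CPM after TMM scaling, linear axes from 0) in every library of the 5 lines, blue for basal and orange for insulin, with black lines for the mean ± SD. *Jag1* lies between 6.19 and 7.25 CPM in DKO and at 11.1 CPM or more in every other library, while *Notch2* stays between 298 and 350 CPM throughout.

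*Notch3* (ENSMUSG00000038146, chromosome 17, 32120820 to 32166852), in tissue a receptor typical of mural cells, fell into 2 levels. DKO dishes had 4.84, 5.74 and 5.73 CPM, ∆CT 4.98, 5.14 and 5.59 CPM and K1030R 5.39, 6.95 and 6.31 CPM, while IR had 8.28, 8.15 and 7.51 CPM and JMO 7.32, 9.13 and 10.01 CPM. The IR and JMO dishes were all above those of the other 3 lines. Against DKO it was higher in IR (log2 0.55, SE 0.117, adjusted p = 0.00017) and JMO cells (0.69, SE 0.116, adjusted p = 1.4e-05), while K1030R (0.20, 95% interval -0.053 to 0.44) and ∆CT (-0.058, 95% interval -0.31 to 0.19) missed the threshold. On the log2 scale ∆CT differed from IR cells by -0.61 (adjusted p = 0.00015), and JMO was above ∆CT by 0.75 and above K1030R by 0.49. K1030R was below IR cells by -0.36 (adjusted p = 0.018), a call lost with DESeq2 (adjusted p = 0.055) and without the first or second IR dish or the first K1030R dish (adjusted p from 0.0518 to 0.127). JMO and IR did not differ past the threshold (0.14, 95% interval -0.087 to 0.36). The summed CPM of 8 mural cell markers, 6 of them tested, was from 1198 to 1206 in DKO, 1058 to 1109 in IR, 1034 to 1073 in ∆CT, 1273 to 1310 in K1030R and 1231 to 1247 in JMO cells. *Pdgfrb* and *Acta2* made up most of that sum, while *Rgs5*, a mural cell marker of low level, was above DKO in all lines with a receptor (log2 1.84 in IR, 1.57 in ∆CT, 1.26 in K1030R and 1.35 in JMO cells). The list did not move as one: *Acta2* was at -0.22, -0.56, 0.30 and 0.27 in the same order. Against DKO, 2 of the 6 tested markers were higher and 2 lower in IR, 2 and 1 in ∆CT, 3 and 2 in K1030R, and 2 and 2 in JMO cells. Of all tested genes, 49.8%, 46.3%, 41.6% and 34.3% were called in these comparisons. The part of mural cell transcripts in the *Notch3* result was not tested.

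*Notch1* (ENSMUSG00000026923, chromosome 2, 26457903 to 26516663) lay between 47.6 and 56.0 CPM in DKO dishes and between 55.1 and 62.8 CPM in the basal dishes of the other lines, which overlap. It was called higher than in DKO in all 4, by 0.18 (IR), 0.22 (K1030R), 0.21 (∆CT) and 0.25 (JMO) on the log2 scale, with adjusted p between 0.000168 and 0.00426. Without the first DKO dish the IR difference was 0.13 and missed the threshold (adjusted p = 0.053). *Notch2* (ENSMUSG00000027878, chromosome 3, 98013527 to 98150361) was called lower than in DKO in K1030R (-0.19, SE 0.0291, adjusted p = 1.3e-06) and ∆CT cells (-0.13, SE 0.0290, adjusted p = 0.00047). Its mean level (± SD, n = 3 each) was 346 ± 4.61 CPM in DKO, 341 ± 4.54 in JMO, 332 ± 10.2 in IR, 317 ± 3.47 in ∆CT and 303 ± 5.33 in K1030R cells. On the log2 scale the largest difference of either receptor in any comparison was 0.25. Transcripts annotated on the opposite strand overlap *Notch1* and *Notch3*, and whether the counting used strand is not given in the sources used here. Over all libraries those overlapping *Notch1* had 308 and 36 counts, beside 31165 for *Notch1*. The 1 overlapping *Notch3* had 16 counts, beside 3592 for *Notch3*.

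*Id2* (ENSMUSG00000020644, chromosome 12, 25093799 to 25097140) had 7.50, 9.15 and 7.81 CPM in DKO, 5.68, 5.81 and 5.93 CPM in IR, 7.30, 6.59 and 6.31 CPM in ∆CT, 6.10, 6.75 and 6.05 CPM in K1030R, and 9.07, 10.5 and 10.6 CPM in JMO cells. DKO dishes were above all dishes of IR, K1030R and ∆CT, and overlapped those of JMO. Against DKO the log2 difference was -0.49 in IR (SE 0.102, adjusted p = 0.00014), -0.37 in K1030R (SE 0.102, adjusted p = 0.0038), -0.27 in ∆CT (SE 0.0999, adjusted p = 0.026) and 0.30 in JMO cells (SE 0.0946, adjusted p = 0.012). The last pair is less firm: with DESeq2 and with no filter on low counts both were lost (adjusted p from 0.0512 to 0.106), ∆CT was also lost with only the groups compared (0.0667) and without DKO dish 2 or ∆CT dish 2 or 3, and JMO without DKO dish 1 or 3 or JMO dish 2 or 3. JMO cells stood above each other receptor line by a wider margin, 0.79 over IR, 0.67 over K1030R and 0.57 over ∆CT cells (SE 0.0969 to 0.0989, adjusted p of 1.1e-05 or less). With insulin the same held, with JMO dishes at 10.5 to 10.8 CPM against 6.50 to 8.13 CPM in the other 3 lines.

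*Id3* was higher than in DKO, where its dishes had 13.1, 13.4 and 14.1 CPM, by 0.42 in IR (SE 0.0786, adjusted p = 3.4e-05), 0.21 in K1030R (SE 0.0813, adjusted p = 0.036), 0.32 in ∆CT (SE 0.0795, adjusted p = 0.0010) and 0.52 in JMO cells (SE 0.0776, adjusted p = 1.7e-06). All dishes of the 4 lines were above those of DKO. The K1030R call was lost with limma voom and DESeq2 (adjusted p = 0.066 and 0.0885) and without DKO dish 1 or 2 or K1030R dish 1 or 3. JMO was above K1030R by 0.31 (adjusted p = 0.0014), IR and JMO did not differ past the threshold (0.11, 95% interval -0.044 to 0.26). K1030R was below IR (-0.21, adjusted p = 0.043), a call lost with RLE scaling, DESeq2, limma voom, no filter on low counts, the filter of at least 10 counts and only the groups compared (adjusted p from 0.052 to 0.102), and without the first or second IR dish, any K1030R dish or the second insulin dish of JMO. JMO was above ∆CT (0.20, adjusted p = 0.033), a call lost with DESeq2, no filter on low counts and only the groups compared (adjusted p from 0.0658 to 0.0776), and without the third ∆CT dish or the first or second JMO dish. *Id1* did not differ past the threshold between any 2 lines in the basal state, with log2 differences from -0.17 to 0.18.

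*Hes1* was lowest in JMO cells. It had 9.78, 10.5 and 9.41 CPM in DKO, and its JMO dishes, at 6.71, 6.94 and 6.74 CPM, were below every basal dish of the other 4 lines. The log2 difference of JMO was -0.54 against DKO (SE 0.0945, adjusted p = 2.8e-05), -0.42 against IR (SE 0.0952, adjusted p = 0.00047), -0.53 against K1030R (SE 0.0955, adjusted p = 3.1e-05) and -0.43 against ∆CT cells (SE 0.0954, adjusted p = 0.00045). DKO, IR, K1030R and ∆CT did not differ past the threshold among themselves, with log2 differences from -0.12 to 0.11.

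**Figure D4:**
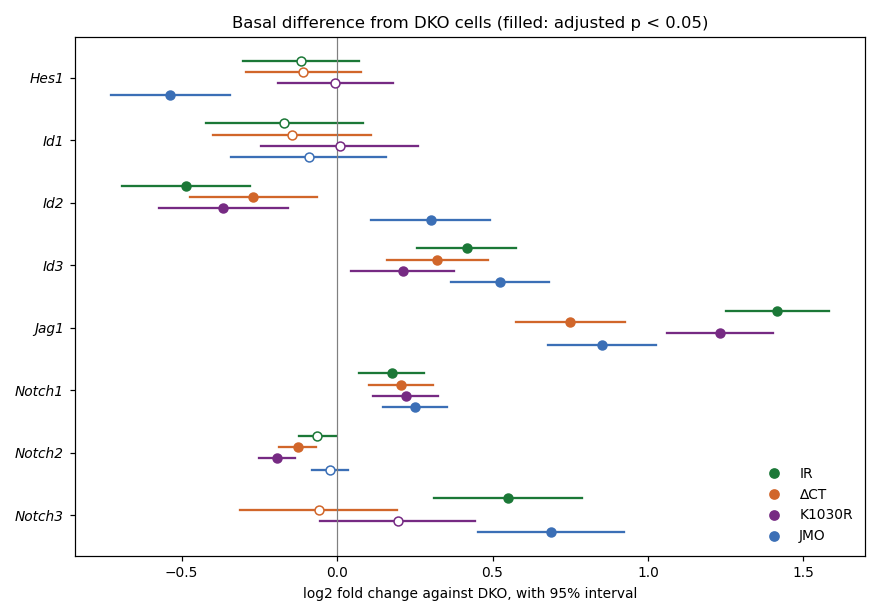
Log2 fold change against DKO cells in the basal state for the 8 tested genes (rows) in IR, ∆CT, K1030R and JMO cells (colors), with 95% intervals from edgeR's quasi-likelihood fit and filled points for an adjusted p below 0.05. *Jag1* lies to the right in all 4 lines, between 0.75 and 1.42, and *Id2* lies left of 0 in all but JMO cells.

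The counts of basal calls need their background, since the lines differed in a large part of the transcriptome. Without a minimum fold, 5 of 8 members differed from DKO in IR against 49.8% of all tested genes, 5 in K1030R against 41.6%, 5 in ∆CT against 46.3% and 6 in JMO cells against 34.3%. With the minimum fold the members were 1, 1, 0 and 1, in each case *Jag1*, against 6.89%, 5.29%, 6.29% and 2.11% of all genes. The 0 for ∆CT cells came from edgeR's minimum-fold test, and without that minimum DESeq2 called 4 and limma voom 5 members there. Between the lines with a receptor, 3 members were called in K1030R against IR (30.2% of all genes), 2 in ∆CT against IR (26.1%), 3 in JMO against IR (42.4%), 6 in JMO against K1030R (35.4%), 5 in JMO against ∆CT (38.8%) and 1, *Jag1*, in ∆CT against K1030R cells (3.43%). For K1030R against IR the count fell to 1, *Notch2*, with DESeq2, and to 1 without the first or second IR dish or the first K1030R dish.

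*Heyl* (ENSMUSG00000032744, chromosome 4, 123233556 to 123249875), a HEY-family Notch target, was under the filter but unevenly spread. In the basal state its counts were 1, 0 and 1 in DKO, 6, 12 and 6 in IR, 8, 3 and 7 in ∆CT, 0, 3 and 2 in K1030R, and 0, 0 and 0 in JMO dishes. With insulin they were 5, 7 and 4 in IR, 4 and 9 in ∆CT, 1, 4 and 1 in K1030R, and 1, 0 and 1 in JMO dishes. Over both states IR dishes had 4 to 12 counts and ∆CT dishes 3 to 9, K1030R dishes overlapped them with 0 to 4, and all DKO and JMO dishes had at most 1 count. Scaled for library size, the basal ratio to DKO was 11.8 in IR (exact 95% interval 2.93 to 103), 9.08 in ∆CT (2.17 to 80.7) and 2.72 in K1030R cells (0.445 to 28.5). JMO cells had 0 counts and were set to a floor of 3 counts over the group. Over that floor *Heyl* was 8.30-fold higher in IR and 6.39-fold in ∆CT cells. K1030R dishes held 5 counts in all, 1.91-fold over that floor. The exact 95% interval of JMO over K1030R cells was 0 to 0.951. IR had 4.34 times the K1030R level (1.62 to 14.6), and ∆CT 3.34 times (1.195 to 11.5). The intervals cover counting error alone. The folds over the floor carry no counting error of the IR, ∆CT or K1030R counts. When every gene with a count was tested, edgeR gave *Heyl* an adjusted p of 0.00053 for IR and 0.0051 for ∆CT against DKO, 4e-06 and 6.1e-05 for JMO against IR and against ∆CT, and 0.0345 for K1030R against IR. JMO against K1030R missed the threshold (0.053), as did ∆CT against K1030R (0.39). These values are for the basal state. With insulin present, edgeR's adjusted p was 0.017 for JMO against IR and 0.012 for JMO against ∆CT. K1030R against IR then missed the threshold (0.30).

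*Hey1* (ENSMUSG00000040289, chromosome 3, 8663359 to 8667256), the related repressor, had 0 to 5 counts per library and 52 in all. Its basal ratios to DKO were 0.982 in IR (exact 95% interval 0.226 to 4.27), 1.96 in K1030R (0.589 to 7.43), 0.807 in ∆CT (0.160 to 3.75) and 1.33 in JMO cells (0.362 to 5.30). No difference in *Hey1* was detectable at this depth.

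**Figure D5:**
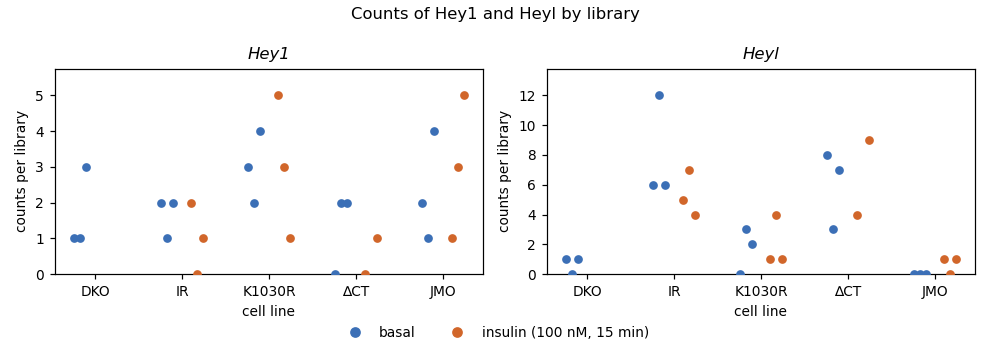
Counts per library (linear axes, not scaled) of *Hey1* and *Heyl* in the 5 lines, blue for basal and orange for insulin. *Heyl* reaches 12 counts in IR and 9 in ∆CT cells and stays at 0 or 1 in every DKO and JMO library, while *Hey1* has at most 5 counts in any library.

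Across the 9 group means (log2 of CPM + 0.5), *Hes1* was most like *Id1* among the members (Pearson's r = 0.86) and *Id1* was like *Id3* (0.83), while *Hes1* and *Id3* gave 0.70. *Id2* ran with *Notch2* (0.68) and not with *Id1* (0.10) or *Id3* (0.15). *Jag1* had no member above 0.52, its value with *Notch1*. These are descriptions over 9 points that share lines and scaling. Each closest gene below is the highest of the correlations with all other tested genes, so its r is high by selection. Shared regulation was not tested. Among all other tested genes the closest to *Hes1* was *Atf3* (r = 0.98), which went from 2.77 ± 0.227 to 6.04 ± 0.405 CPM with insulin in IR cells. The closest to *Jag1* was *Map4k3* (0.98), to *Notch3* *Elmod2* (0.97), to *Notch2* *Tmem267* (0.98), to *Notch1* *Fam199x* (0.97), to *Id3* *Tgfbr3l* (0.96), to *Id2* *Gm48027* (0.98) and to *Id1* *AC113010.1* (0.97), the last at under 1 CPM in every group.

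Other genes of the pathway were taken from lists of textbook pathway members. Basal IR cells differed from DKO in all 4 tested of 7 other Notch ligands and receptors (2 higher, 2 lower, median log2 0.13), in 9 of 14 genes of Notch cleavage and glycosylation (5 higher, 4 lower, 0.032), in 7 of 9 of the nuclear complex (3 higher, 4 lower, -0.018) and in 8 of 14 of Notch traffic and turnover (5 higher, 3 lower, 0.0048), beside a median of 0.014 over all tested genes. In that comparison 49.8% of all tested genes were called, a share near those of both lists of 14. The lists of 4 and 9 tested genes lay above it on few genes, and no list was tested against that share. *Rbpj*, which encodes the DNA-binding partner of cleaved Notch, was at 251 ± 5.48 CPM in DKO and 143 ± 3.74 CPM in IR cells, a log2 difference of -0.81 (SE 0.0426, adjusted p = 1.2e-17), with -0.47 in ∆CT, -0.39 in K1030R and -0.30 in JMO cells. *Dlk2*, a Notch ligand-like gene, was lower in IR cells by -1.43, and *Dtx4*, of the Deltex ubiquitin ligases, was higher by 1.10. In JMO cells *Dlk2* was within -0.13 (adjusted p = 0.67) and *Dtx4* at -0.41 relative to DKO. The Notch lists thus held changes of both signs.

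Of 9 tested genes (15 listed) that are other HES and HEY relatives or TLE corepressors, which HES proteins recruit, 6 were higher and 0 lower in basal IR cells than in DKO (median log2 0.30). The counts were 2 higher and 2 lower in K1030R (0.0069), 4 and 1 in ∆CT (0.12), and 1 and 3 in JMO cells (-0.066), beside medians of 0.0075 to 0.014 over all tested genes. Of all tested genes, 25.6% were called higher in IR (49.8% in either direction), 23.4% in ∆CT (46.3%), 21.2% in K1030R (41.6%) and 16.9% in JMO cells (34.3%). *Tle4* had the largest difference, 1.31 in IR, 1.30 in ∆CT, 1.62 in K1030R and 0.66 in JMO cells, at 1.63 ± 0.529 CPM in DKO. With insulin, 2 genes of this list rose in IR cells and 1 fell: *Bhlhe40*, a repressor of the same wider family, by 0.22 (SE 0.0498, adjusted p = 0.010), *Tle2* by 0.42 (SE 0.0935, adjusted p = 0.022), and *Aes*, a short TLE relative, with a log2 difference of -0.16 (adjusted p = 0.033). *Bhlhe40* and *Tle2* also passed in ∆CT cells (0.26 and 0.45, adjusted p = 0.011 and 0.041). Of all tested genes, insulin called 1.87% in IR, 1.01% in ∆CT, 0.156% in K1030R and 0.364% in JMO cells. In K1030R and JMO cells 0 of the 9 passed in edgeR, where *Tle2* had 0.47 and 0.32 (adjusted p = 0.068 and 0.32), 1 gene had an unadjusted p below 0.05 in each line, and DESeq2 called 1 in each and limma voom 1 in K1030R cells.

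*Id4* and the 3 E proteins that ID proteins bind, 4 genes in all, gave 3 higher and 1 lower in IR than in DKO cells. In IR cells the lower gene was *Id4* (log2 -1.20), and the 3 E proteins were higher. The counts were 1 higher and 0 lower in K1030R, 2 and 1 in ∆CT, and 0 and 1 in JMO cells. Among BMP ligands, receptors and SMADs, 14 of 22 were tested, with 3 higher and 2 lower in IR (median 0.035), 3 and 5 in K1030R (-0.066), 2 and 4 in ∆CT (-0.067) and 1 and 6 in JMO cells (-0.087). *Bmp4* was higher in all 4 lines, by 0.87, 0.42, 0.46 and 0.69 in IR, K1030R, ∆CT and JMO cells, and *Bmp6* was lower, by log2 differences of -2.44, -1.63, -1.92 and -3.01. BMP inhibitors, 14 of 15 tested, gave 3 higher and 6 lower in IR, 1 and 9 in K1030R, 3 and 9 in ∆CT, and 5 and 3 in JMO cells. The shares of all tested genes called in these comparisons (49.8%, 41.6%, 46.3% and 34.3% in the same order) stand beside both BMP lists and the list of *Id4* and E proteins. *Chrdl1*, which encodes a secreted BMP antagonist, was higher in all 4 lines by between 1.10 and 1.83. After insulin in IR cells, 0 of the 73 tested genes in these 3 lists and the 4 Notch lists passed in edgeR, DESeq2 or limma voom, and 13 had an unadjusted p below 0.05 in edgeR. Of all tested genes edgeR called 1.87% there, so 0 of 73 is close to the background.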

How the data were processed

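Polyadenylated RNA of 26 libraries was sequenced as single-end reads from stranded libraries. The authors trimmed the reads with fastp, used kallisto against Ensembl mouse transcripts and collapsed transcripts to genes in tximport, with tool versions not given in the sources used here. The deposited values are expected counts per gene and library, neither filtered nor scaled, and were rounded here. Libraries took their line, treatment and replicate from the labels, and the genes and lists described were chosen with earlier results of these data known. Because the labels do not say that dishes came from separate cultures, p-values measure the spread between dishes.

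The 15402 genes that exceeded a CPM of 0.5 in 4 or more libraries were scaled with TMM factors. The main test was edgeR 4.0.16 (R 4.3.3), a robust quasi-likelihood fit with 1 mean per group over all 26 libraries, with Benjamini-Hochberg adjustment over all tested genes and a threshold of 0.05. Beside it stands glmTreat against a minimum fold of 1.5, after the minimum-fold test of the study. Alternatives were DESeq2 1.42.0, limma 3.58.1 with voom, scaling by RLE, testing without a low-count filter or with a stricter one (10 counts in 4 or more libraries), counts left unrounded, fits of only the groups compared, replicate number as a block, and each library left out in turn. Ratios of *Hey1* and *Heyl* use group sums with exact 95% binomial intervals and a floor of 3 counts over the group. Residuals of libraries with equal replicate numbers had a median correlation of 0.0085 (lowest -0.17, highest 0.12, 100 pairs), beside -0.0084 for unequal numbers. Over the genes as a whole this gave no sign that numbers pair libraries, and it cannot settle single genes. In all 25 pairs of dishes within a group the difference exceeded counting error (chi-square per degree of freedom 2.81 to 22.2). On simulated data for insulin in IR cells, with 15402 genes, 67 of 100 genes changed 1.5-fold and 78 of 100 changed 2-fold were recovered, and 6 unchanged genes were called.

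Genes named from the pathway lists are those with the largest differences past the minimum fold between IR and DKO cells (up to 3 per list) and the lowest adjusted p after insulin in IR cells (up to 3 per list). One gene so named is not reported here. *Insr* and *Igf1r* are given for the lines. Gene names and coordinates are those of GENCODE mouse release M21 (GRCm38), which named 52002 of 52962 identifiers.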

Additional observations from a re-analysis of the deposited data

Results flagged for a closer look

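The effect of insulin differed between lines for *Hes1* in 4 of the 6 pairs of lines with a receptor, by edgeR's test of the difference itself. The log2 difference of effects was -1.08 for K1030R minus IR, -0.90 for JMO minus IR, -0.93 for JMO minus ∆CT and 1.10 for ∆CT minus K1030R cells (adjusted p = 2.2e-07, 2.4e-05, 3.3e-05 and 3.3e-07). Every dish of IR and ∆CT with insulin had at least 21.5 CPM of *Hes1*, and every dish of K1030R and JMO with insulin at most 12.4 CPM. For *Id3* the effect differed in 1 pair, ∆CT minus K1030R, by 0.49 (adjusted p = 0.027). This *Id3* call is less firm: it was lost with limma voom (adjusted p = 0.063) and on leaving out single libraries, as given above. Groups of 3 dishes or fewer were not searched for single dishes that stand apart.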

How the results depend on the processing

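Of 99 log2 differences of members followed through the alternatives (all called ones, and *Hes1*, *Id1* and *Id3* for insulin), all 99 kept direction and call with unrounded counts, 98 with RLE scaling, 97 with the stricter filter, 96 with limma voom and with only the groups compared, 91 with DESeq2 and 89 with no filter. A minimum fold of 1.5 ended 68 calls, by construction a stricter question, and moved the count of members called most. The counts became 1 in IR, K1030R and JMO and 0 in ∆CT against DKO, 0 in each of the 6 basal pairs of lines with a receptor, 1 for insulin in IR and in ∆CT, and, with insulin present, 1 for K1030R against IR, 0 for ∆CT against IR, 2 for JMO against IR, 0 for JMO against K1030R, 1 for JMO against ∆CT and 1 for ∆CT against K1030R. For differences of insulin effects they became 0 for JMO against IR and against ∆CT and 1 for ∆CT against K1030R. Other moves were to 1 for K1030R against IR in the basal state with DESeq2, to 1 for insulin in JMO cells with no filter and with the replicate block, to 2 for the insulin effect of K1030R against IR with no filter, with at least 10 counts in at least 4 libraries and with the replicate block, to 2 for that of JMO against IR and against ∆CT with no filter, and to 1 for that of ∆CT against K1030R with limma voom. The causes of these moves were not tested.

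With each library left out in turn, counts of members called ran from 4 to 6 for IR, 4 to 5 for K1030R and for ∆CT, and 5 to 6 for JMO against DKO. In basal pairs they ran from 1 to 4 for K1030R against IR, 2 to 3 for ∆CT against IR and 4 to 5 for JMO against ∆CT, and for insulin in JMO cells from 0 to 1. With insulin present they ran from 4 to 5 for K1030R against IR, 4 to 6 for JMO against ∆CT and 2 to 4 for ∆CT against K1030R, and for the insulin effects of K1030R against IR, JMO against IR, JMO against ∆CT and ∆CT against K1030R from 1 to 2. The small difference of insulin effects between ∆CT and IR changed sign for *Hes1* with the replicate block (-0.0021) and between -0.084 and 0.10 over the libraries left out, and for *Id3* between -0.027 and 0.14. Leaving out 1 of the 2 ∆CT insulin dishes assumes that the other varies like the rest. Replicate numbers gave no sign of pairing over the genes as a whole. The replicate block kept 96 of the 99 differences, and its other effects are given above. At these totals a gene under 0.5 CPM has about 10 counts or fewer, which limits *Hey1* and *Heyl*.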
